A study of Mus musculus with 2 samples.

Results

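Followed here in 2 RNA sequencing libraries of mouse embryonic stem cells were 10 genes, the 4 keratin genes of simple epithelia, Krt7, Krt8, Krt18 and Krt19, and the 6 desmosome genes Dsp, Dsg2, Dsc2, Jup, Pkp2 and Perp. They were taken by gene symbol from a table of 46983 genes by way of the GENCODE annotation of GRCm38, and each symbol matched 1 row. The cells were of the line 46C, in which Sox1 carries a fluorescent reporter, and had been grown on feeders in medium with serum and leukaemia inhibitory factor (LIF). The linc1557 knockdown library was made from cells that carried an shRNA directed at linc1557, a long noncoding RNA, and the control shRNA library from cells that carried a control shRNA. In each case infected cells had been selected with puromycin and stable clones picked, and the number of clones behind a library is not stated. Total depth was 26693282 counts for the knockdown and 23146210 for the control. With 1 library per group no replicate check or test could be made, and the genes had been selected on their counts and ratios in these same libraries, so every value here is a description. The target linc1557 itself was not analysed here. Pou5f1, the defining stem cell factor, had 8474 counts in the knockdown library against 7269 in the control library, so both held abundant stem cell RNA.

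Keratins form the intermediate filaments of epithelial cells. A type II keratin, here Krt7 or Krt8, pairs with a type I keratin, here Krt18 or Krt19, since the filament is built from heterodimers of the 2 types, and a keratin protein left without a partner is degraded. Krt8 and Krt18 are the first keratins of the mouse embryo, made in its outer epithelium, and are low in undifferentiated embryonic stem cells. Desmosomes tie these filaments to the cell membrane. In the desmosome the cadherins desmoglein (Dsg2) and desmocollin (Dsc2) bridge neighbouring cells, plakoglobin (Jup) and plakophilin (Pkp2) bind their tails inside the cell, and desmoplakin (Dsp) links that plaque to the keratins. Perp is a membrane protein of desmosomes that was first described as a p53 target.

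The start regions of the 3 keratin genes that stood furthest apart between the libraries are shown because these genes lie on the same chromosome and had the lowest ratios of the 10. The windows, from RefSeq on build GRCm38.p6, run from 250 bases before to 50 bases after the annotated start and read in the direction of the gene. Their RefSeq starts lie inside the GENCODE genes whose coordinates are given further on, by 1360 bases for Krt7, 140 for Krt8 and 36 for Krt18. Krt8 is at chr15:102004293-102004592 on the minus strand, Krt18 at chr15:102027966-102028265 and Krt7 at chr15:101412153-101412452, both on the plus strand. Capitals mark matches, on either strand, to the E2 box CACCTG, the AP-2 pattern GCCNNNGGC, the GC box GGGCGG, the GATA pattern AGATAA and the TATA box TATAAA.
Krt8: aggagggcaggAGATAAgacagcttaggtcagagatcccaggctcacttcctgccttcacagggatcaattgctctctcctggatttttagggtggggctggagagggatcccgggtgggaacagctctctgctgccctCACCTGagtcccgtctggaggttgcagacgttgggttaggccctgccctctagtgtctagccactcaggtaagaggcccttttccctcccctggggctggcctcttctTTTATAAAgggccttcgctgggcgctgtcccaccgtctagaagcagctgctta
Krt18: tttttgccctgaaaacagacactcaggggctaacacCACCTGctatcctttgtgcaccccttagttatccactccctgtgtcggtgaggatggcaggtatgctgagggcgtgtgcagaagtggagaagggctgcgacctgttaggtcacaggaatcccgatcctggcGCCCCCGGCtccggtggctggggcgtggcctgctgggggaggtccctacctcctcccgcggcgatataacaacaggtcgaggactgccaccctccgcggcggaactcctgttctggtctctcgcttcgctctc
Krt7: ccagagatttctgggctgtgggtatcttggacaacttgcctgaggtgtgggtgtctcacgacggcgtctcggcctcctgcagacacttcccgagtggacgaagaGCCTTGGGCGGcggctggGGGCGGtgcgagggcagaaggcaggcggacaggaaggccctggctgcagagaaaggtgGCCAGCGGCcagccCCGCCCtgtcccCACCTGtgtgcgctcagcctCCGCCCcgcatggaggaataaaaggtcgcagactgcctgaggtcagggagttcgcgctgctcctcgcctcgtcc
The Krt8 window held 2 overlapping TATA box matches, at positions 248 and 250 of 300, where the RefSeq start is position 251. The Krt18 and Krt7 windows held no TATAAA on either strand. Each of the 3 windows held 1 E2 box, a pattern found in 20.2% of the 32851 start regions in the table. Krt7 held 4 GC boxes and Krt8 and Krt18 none, against 35.7% of start regions with at least 1, and 1 GC box of Krt7 overlaps an AP-2 match. AP-2 matches numbered 2 in Krt7, 1 in Krt18 and 0 in Krt8 (16.6% of start regions). The GATA pattern was found in Krt8 alone of the 3 (11.2% of start regions). None of the 3 held the AP-1 pattern TGANTCA, the TEAD pattern GGAATG, the octamer ATGCAAAT or the GRHL pattern AACCGGTT, which occur in 7.81%, 14.7%, 1.74% and 0.146% of start regions. The CACCC box of KLF factors and the ETS core GGAAG, left in lower case, occur in 57.5% and 71.4% of start regions. CACCC was in all 3 windows, and GGAAG was in Krt8 and Krt7 but not Krt18. Windows for Dsp and Jup were also in the table and are not shown. Dsp held 4 GC boxes, 1 E2 box and 1 AP-2 match, 1 of its GC boxes overlapping the AP-2 match, and Jup held 2 GC boxes and neither of the others. A match is a run of letters and no evidence of binding.

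All 4 keratin genes and 3 of the 6 desmosome genes were lower in the knockdown library. A gene entered when its CPM, the count scaled to library size with TMM factors, reached 1 in either library, and all 10 did. It was called lower or higher when the libraries differed by at least 2-fold and the exact 95% counting interval of the ratio excluded 1. By that rule 7 of the 10 genes were lower, none was higher, and Dsg2, Jup and Perp were not called. Over all 15850 genes that entered, 9.48% were lower and 4.68% were higher. The median log2 ratio of the 10 genes was -1.50, against 0.02 for all genes entered. Intervals in brackets cover counting error only, since reads are not counted as single molecules, and leave the variation of cultures and clones out. In bulk RNA, fewer cells of a type and less RNA per cell cannot be told apart.

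**Figure D1:**
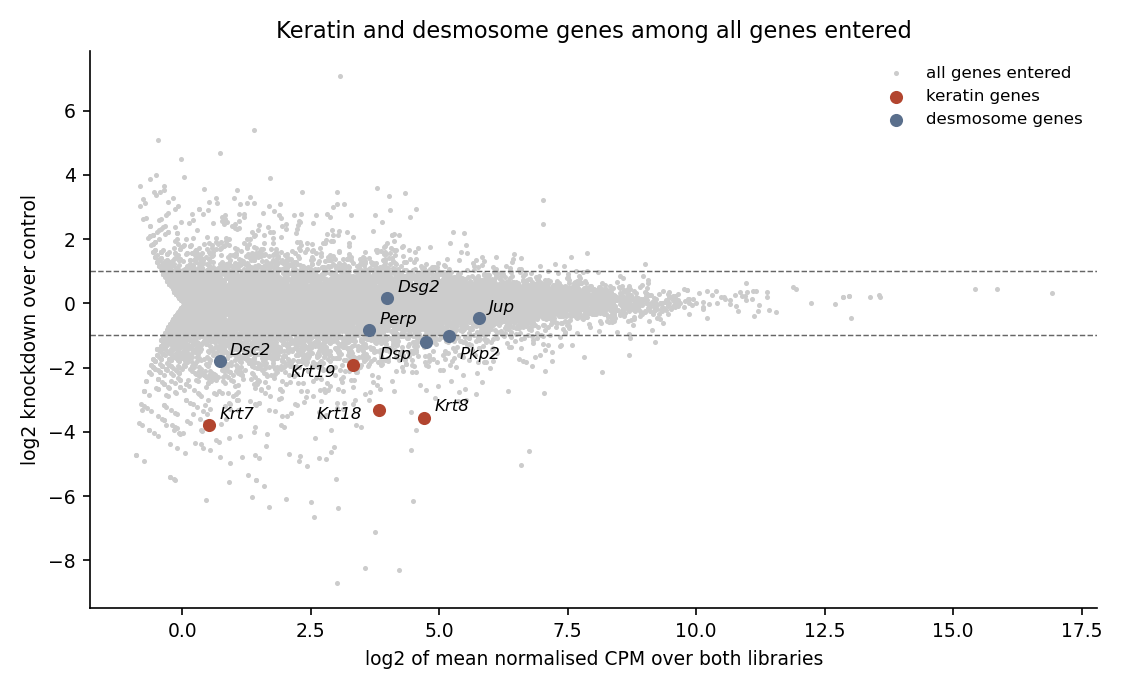
Each grey point is 1 of the 15850 genes entered, with the log2 of its mean normalised CPM on the x axis and its log2 ratio of knockdown over control on the y axis, where a count of 0 was set to 3. The dashed lines mark 2-fold, and Krt7, Krt8 and Krt18 lie at -3.79, -3.56 and -3.33, while Dsg2 lies at 0.16.

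Krt8, the type II keratin of simple epithelia, had 105 counts in the knockdown library and 1163 in the control library, or 4.10 and 48.2 normalised CPM. It was 11.8-fold lower in the knockdown library (9.63 to 14.5), and only 90 of the 15850 genes had a lower ratio. Krt18, its usual type I partner, had 66 knockdown and 623 control counts, or 2.58 and 25.8 CPM, and was 10.03-fold lower (7.77 to 13.1). These 2 genes sit 23.7 kb apart on chromosome 15, Krt8 (ENSMUSG00000049382) from 101996698 to 102004482 and Krt18 (ENSMUSG00000023043) from 102028180 to 102032027, and their ratios lay within each other's counting interval. Of the summed counts of the pair, Krt8 held 61.4% in the knockdown library (53.9 to 68.4) and 65.1% in the control library (62.9 to 67.3, 95% Wilson intervals). The pair was thus lower with no shift in its make-up detectable at this depth.

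Krt7, a second type II keratin found in ducts and other simple epithelia, had 5 counts with the linc1557 hairpin and 65 with the control hairpin. It was 13.8-fold lower (5.63 to 44.0), the widest interval of the 10 genes. Its share of the Krt7 and Krt8 counts was 4.55% in the knockdown library (1.96 to 10.2) and 5.29% in the control library (4.18 to 6.69), so Krt8 made up nearly all of this type II pair in each. Krt19, a type I keratin that lacks most of the tail domain of other keratins, stood apart from these 3. It had 108 counts in the knockdown library against 383 in the control library, or 4.22 and 15.9 CPM, and was 3.77-fold lower (3.04 to 4.71). That interval does not overlap those of Krt8 and Krt18. Krt19 lies on chromosome 11 in the cluster of type I keratin genes (100140810 to 100148665, ENSMUSG00000020911), whereas Krt18 is the type I gene that lies beside the type II cluster on chromosome 15.

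The make-up of the type I pair differed between the libraries. Of the type I counts of Krt18 and Krt19 together, Krt19 held 62.1% in the knockdown library (54.7 to 68.9) and 38.1% in the control library (35.1 to 41.1). Levels of different genes were compared as normalised CPM per kb of the deposited gene length. On that scale the summed level of Krt7 and Krt8 was 2.30 in the knockdown library, below the 4.11 of Krt18 and Krt19 there, while in the control library the same sums were 27.10 and 27.02. With the length of the annotated principal transcript in place of the deposited length, an alternative chosen after seeing the data, the sums were 2.14 against 4.47 in the knockdown and 25.3 against 28.1 in the control library. Over all keratin genes in the table, again per kb of the deposited length, the summed level of type I exceeded that of type II in each library, with 12.86 for type I and 2.53 for type II in the knockdown library and 41.3 and 27.9 in the control library, so the near-equal sums of the control library hold for the 4 genes alone. All 4 keratins together had 284 knockdown and 2234 control counts, and their sum was 8.36-fold lower (7.38 to 9.49).

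Few keratin genes outside the set were measured above the entry level. Of 53 keratin genes in the table, 18 had 0 counts in both libraries and only 8 entered, the 4 above and the type I genes Krt42, Krt17, Krt10 and Krt222. No further type II keratin entered, and the highest count of any was 10. Krt42, a type I keratin gene beside Krt17 on chromosome 11, had 233 counts with the linc1557 hairpin and 403 with the control hairpin, and Krt17, a keratin of stratified and wounded epithelia, had 91 knockdown and 119 control counts. Neither was called, at 1.84-fold (1.56 to 2.17) and 1.39-fold (1.05 to 1.85) lower in the knockdown library. Krt42 took 33.4% of all keratin counts in the knockdown library (30.0 to 37.0) and 14.0% in the control library (12.7 to 15.3). Krt8 took 15.0% in the knockdown library (12.6 to 17.9) and 40.3% in the control library (38.5 to 42.1). The keratin with the most counts was thus Krt42 in the knockdown and Krt8 in the control library. Keratins 7, 8, 18 and 19 together made up 40.7% of keratin counts in the knockdown library (37.1 to 44.4) and 77.4% in the control library (75.9 to 78.9).

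**Figure D2:**
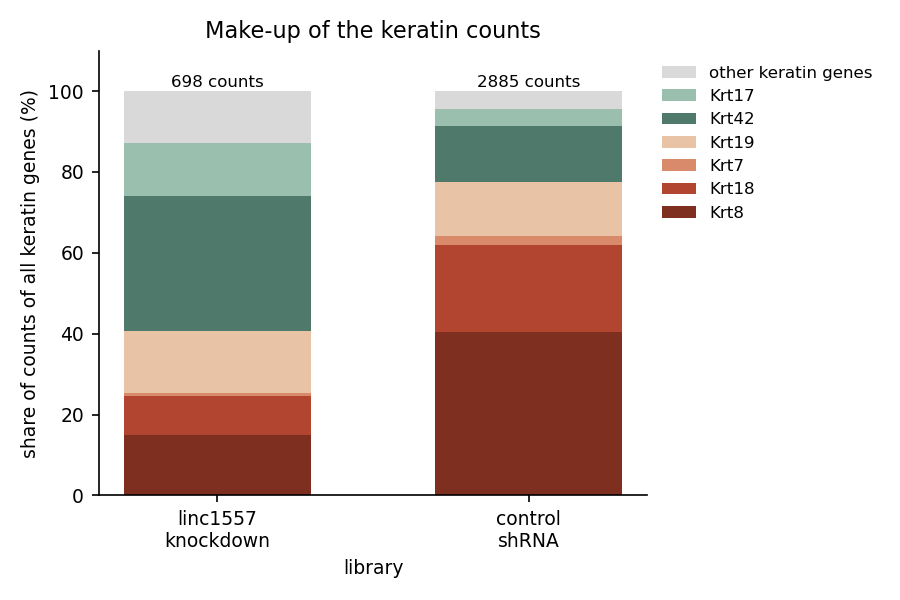
Bars give the share of the counts of all 53 keratin genes, in percent, held by each keratin gene in the knockdown library (left, 698 counts) and the control library (right, 2885 counts). Krt8 and Krt18 fill most of the control bar, at 40.3% and 21.6%, and take 15.0% and 9.46% in the knockdown bar, where Krt42 is the widest band at 33.4%.

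The desmosomal cadherins went separate ways. Dsg2, the desmoglein of simple epithelia, had 426 counts in the knockdown library against 359 in the control library, or 16.6 and 14.9 CPM, and its ratio of 1.12 had an interval that included 1 (0.968 to 1.29). It was the only one of the 10 genes with a ratio above 1. Dsc2, the desmocollin of the same junctions, had 19 knockdown and 62 control counts and was 3.47-fold lower (2.05 to 6.14). Dsg2 held 95.7% of the counts of this pair in the knockdown library (93.4 to 97.3) and 85.3% in the control library (81.6 to 88.3), so the summed cadherin counts, 445 in the knockdown library and 421 in the control, differed by a log2 ratio of -0.01 (-0.20 to 0.19). Both genes lie on chromosome 18, Dsc2 (ENSMUSG00000024331) from 20030633 to 20059554 and Dsg2 (ENSMUSG00000044393) from 20558074 to 20604521.

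Of the 3 plaque genes, Dsp and Pkp2 were called lower and Jup was not. Dsp, the linker to keratin filaments, had 412 counts with the linc1557 hairpin and 900 with the control hairpin and was 2.32-fold lower (2.06 to 2.61). Pkp2 had 623 counts in the knockdown library against 1181 in the control library. Its ratio of 2.01-fold lower (1.83 to 2.22) only just met the rule, and with DESeq2 size factors or on nuclear protein-coding genes alone its log2 ratio was -0.97 or -0.99, which ended the call. Jup, which serves both desmosomes and adherens junctions, had 1179 knockdown and 1521 control counts, at 46.0 and 63.1 CPM, and was 1.37-fold lower (1.27 to 1.48), short of the threshold. Of the summed counts of these 3 plaque genes Jup held 53.3% in the knockdown library (51.2 to 55.3) and 42.2% in the control library (40.6 to 43.8), while Dsp held 18.6% in the knockdown library (17.0 to 20.3) and 24.99% in the control library (23.6 to 26.4). Perp had 230 counts with the linc1557 hairpin and 385 with the control hairpin and was 1.78-fold lower (1.51 to 2.10), again short of 2-fold. The summed counts of the 6 desmosome genes were 1.62-fold lower (1.55 to 1.70), with Jup and Pkp2 holding the most counts. That interval covers the counting error of the sum and not the spread of the genes. Single genes of the 2 groups overlapped, with Dsc2 at 3.47-fold (2.05 to 6.14) and Krt19 at 3.77-fold lower (3.04 to 4.71). The difference between keratin and desmosome genes was not tested.

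In GRCm38 coordinates, Krt7 (ENSMUSG00000023039) lies on chromosome 15 from 101411043 to 101430313 and Dsp (ENSMUSG00000054889) on chromosome 13 from 38151294 to 38198577. Jup (ENSMUSG00000001552) lies on chromosome 11 from 100368958 to 100397763, 220.3 kb beyond Krt19, and Pkp2 (ENSMUSG00000041957) on chromosome 16 from 16213318 to 16272712. Perp (ENSMUSG00000019851) lies on chromosome 10 from 18845020 to 18857073. Isoforms were not separated by the counting. In 4 of the genes an exon overlaps a gene on the opposite strand, over 101 bases for Krt8 (Gm36026), 77 for Krt7 (Gm671), 499 for Dsp (Gm10129) and 330 for Dsg2 (Gm16090). The strand setting of the counting is not known here, so reads of such a pair cannot be told apart. Gm10129 had 0 counts in the knockdown library against 2 in the control library and Gm16090 had 2 knockdown and 0 control counts. Gm36026 and Gm671 were not among the counted genes. Krt8 and Krt18 each have a processed pseudogene of like sequence, Krt8-ps at 98.6% identity over 941 bases and Gm5200 at 90.2% over 1269 bases. Neither was among the counted genes, and the ratios of Krt8 and Krt18 are uncertain to the extent that such copies took or lost reads.

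The order of levels within the set was not the same in the 2 libraries. In the knockdown library Jup led with 7.15 CPM per kb (6.75 to 7.57), ahead of Perp with 4.72 (4.13 to 5.37) and Pkp2 with 4.54 (4.19 to 4.91), whose exact Poisson intervals overlapped. Krt19, Krt8, Dsg2, Krt18 and Dsp followed between 2.27 and 1.67, each overlapping its neighbour in that order. In the control library Krt8 led with 26.7 (25.2 to 28.3) and Krt18 came next with 18.5 (17.03 to 19.96), both set apart from the gene after them. Jup, Pkp2, Krt19 and Perp then lay between 9.80 and 8.40, each overlapping its neighbour, followed by Dsp at 3.88 and Dsg2 at 1.80. Dsc2 and Krt7 were at the bottom of each library, at 0.14 and 0.03 in the knockdown library and 0.49 and 0.38 in the control library. These levels depend on the gene length. By the length of the principal transcript Jup stood at 14.4 in the knockdown library and 19.7 in the control library. There Krt18 came after Jup in the control library, at 17.98 (16.59 to 19.45), and its interval overlapped those of Jup and Pkp2. Pkp2 stood at 8.33 in the knockdown library against 16.8 in the control library, which set it apart from Perp in the knockdown library. The first place of Jup in the knockdown and of Krt8 in the control library held under both lengths.

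**Figure D3:**
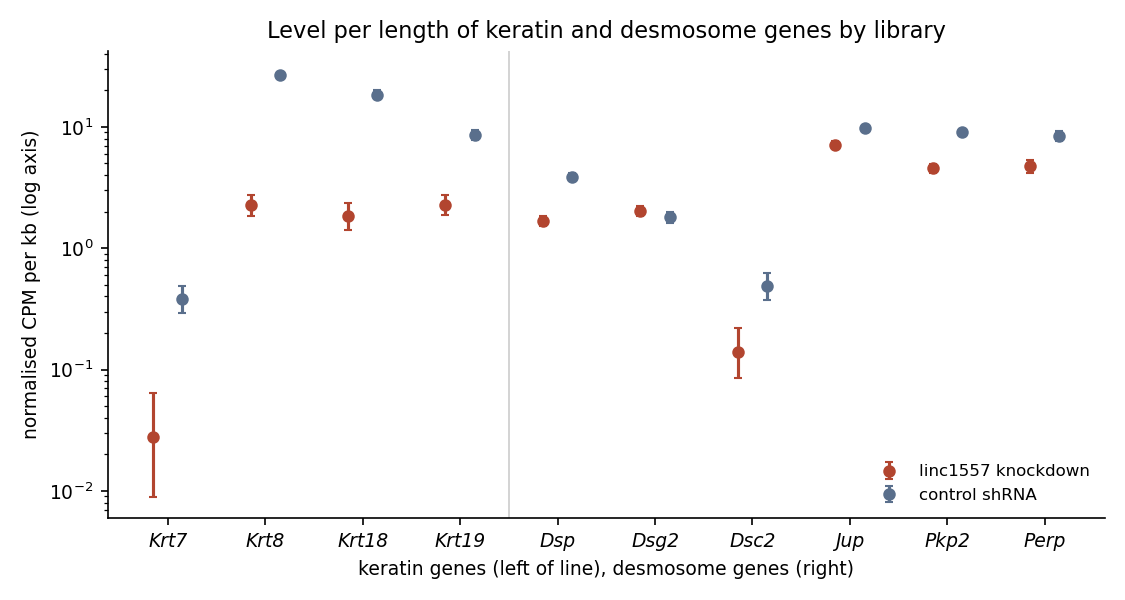
Points give the level of each gene as normalised CPM per kb on a log axis in the knockdown library (red, left of each pair) and the control library (blue, right), with exact 95% Poisson intervals for counting error. Krt8 stands at 2.27 in the knockdown library and 26.7 in the control library, whereas the points of Dsg2 lie close together at 2.01 in the knockdown library against 1.80 in the control library.

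The neighbours of Krt8 and Krt18 that entered did not share their ratios. Within 200 kb of the pair lay 8 further protein-coding genes that entered, with log2 ratios from -1.20 to 1.69 and a median of 0.50. All 8 lay on the side of Krt18. On the side of Krt8, where other type II keratin genes lie, no protein-coding gene entered, so that side was not compared. Igfbp6, which encodes a binding protein of insulin-like growth factors, was 2.29-fold lower from 19 knockdown and 41 control counts. Soat2, a sterol acyltransferase gene, and Csad, a gene of taurine synthesis, were 3.22-fold and 2.36-fold higher. The other 5, Eif4b, Tns2, Spryd3, Zfp740 and Itgb7, were not called. Near Dsg2 the single such neighbour, B4galt6, was 2.18-fold higher (2.01 to 2.37), and Dsc2 had none.

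Of 17 tight junction genes, 13 lay lower in the knockdown library, 4 were uncalled and none was higher, around a median log2 ratio of -1.24. Among these Cldn6, a claudin of early embryonic epithelium, was 15.4-fold lower (12.1 to 19.8), Cldn7 6.43-fold (3.98 to 10.9), the scaffold gene Patj 6.33-fold (5.12 to 7.90) and the tricellular junction gene Marveld2 5.31-fold (3.37 to 8.71). Of 10 adherens junction genes, which anchor actin and not keratins, 1 was lower and 9 were uncalled, around a median of -0.44. The lower one was Cdh2 (N-cadherin), at 6.44-fold (5.51 to 7.56), and 1 of 10 is near the 9.48% of all genes. At a 1.5-fold threshold 4 of the adherens junction genes were lower, Cdh3 (1.78-fold), Vcl (1.66-fold) and Cdh1 (1.61-fold, E-cadherin) joining Cdh2, against 14 of the tight junction genes. Over all 15850 genes entered, 2598 were lower at that threshold. The difference between the kinds of junction was not tested. Of the 13 other desmosome genes 5 entered, and Ppl (periplakin) alone was lower, at 2.53-fold (1.82 to 3.57), with a median of -0.05. The desmogleins and desmocollins of the epidermis were at or near 0, and Pkp4, an armadillo protein of cell junctions, had 3113 counts with the linc1557 hairpin and 3023 with the control hairpin. Of 7 hemidesmosome and plakin genes, which tie filaments to the matrix or to other filaments, none was called, and the giant linkers Dst and Macf1 had log2 ratios of -0.12 and 0.13. The other type I keratins that entered had 0 of 4 called and a median of -0.40.

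Genes that encode epithelial transcription and splicing factors had 12 members that entered, of which 7 were lower and none higher, around a median of -1.09. Over all genes entered, 9.48% were lower. Cdx2, a factor of trophectoderm and gut, was 16.5-fold lower (4.19 to 142) from 2 counts in the knockdown library against 31 in the control library. Esrp1, an epithelial splicing regulator, had 110 knockdown and 1203 control counts and was 11.6-fold lower (9.55 to 14.3), close to the ratio of Krt8. Ehf was 11.3-fold lower (3.55 to 57.8) and Grhl2, an activator of junction genes, 5.85-fold (4.999 to 6.88). The members of this list that entered and were not called were Klf5, Grhl3 and Cdx1, with log2 ratios of 0.57, 0.75 and 0.82, and Tfap2c and Grhl1, at -0.36 and -0.39. Cdx1, the highest of the list, had 43 knockdown and 23 control counts.

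**Figure D4:**
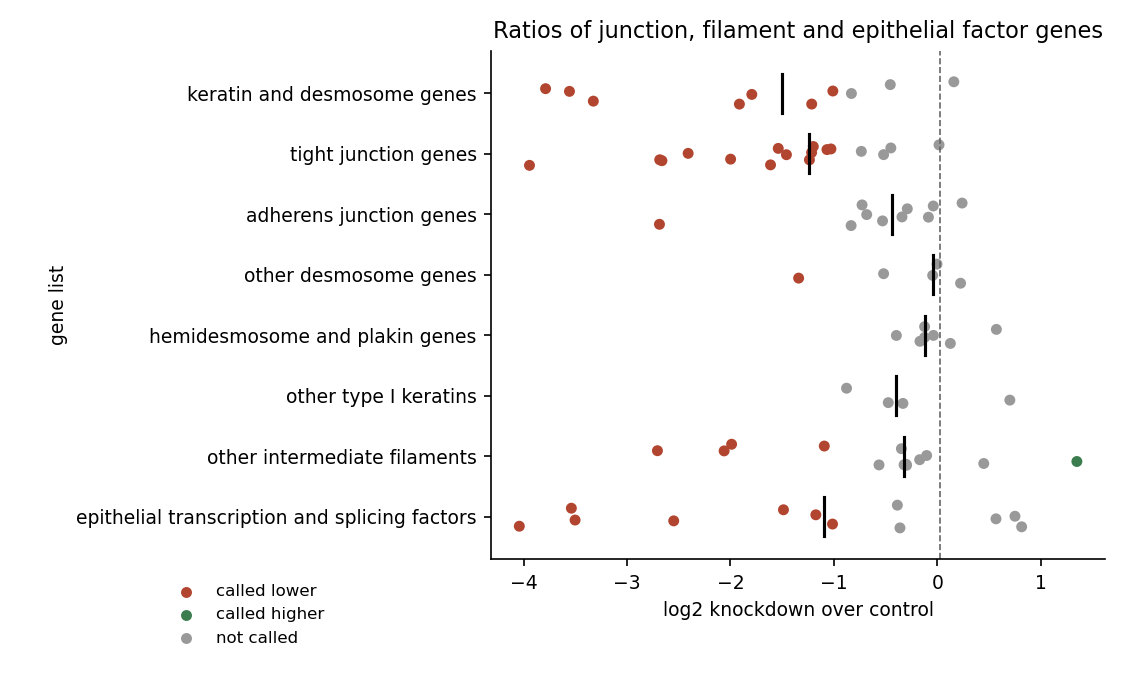
Each point is 1 gene that entered, placed by its log2 ratio of knockdown over control (x axis) in its gene list (y axis), with the vertical scatter for legibility only. Black bars are list medians, -1.50 for the keratin and desmosome genes, -1.24 for tight junctions and -0.44 for adherens junctions, and the dashed line is the median of all genes entered at 0.02.

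Markers of other cell types also differed between the libraries, and whether those cells carried the keratin or desmosome RNA was not examined. For the counts that follow, 9.48% of all genes entered were lower and 4.68% higher. Feeder fibroblast markers were lower for 14 of 20 genes and uncalled for the other 6, around a median log2 ratio of -1.51. Their summed levels were 1598 CPM in the knockdown library and 2852 in the control library. Most of the knockdown sum was Fn1 (fibronectin), which was not called, and without it, an alternative chosen after seeing the data, the sums were 539.8 CPM in the knockdown library against 1654 in the control library. Col6a3, Col3a1, Col6a2 and Col6a1, collagen genes of fibroblasts, were 5.41-fold, 4.48-fold, 4.402-fold and 3.95-fold lower, and none of the 20 was at 0 in both libraries. Dcn (decorin) alone of the 20 had a ratio above 1. It had 511 knockdown and 403 control counts and was 1.19-fold higher (1.045 to 1.363), short of 2-fold. Of 14 extraembryonic endoderm markers 11 entered and 8 were lower, with a median of -1.35 and sums of 391.5 CPM in the knockdown library and 722.4 in the control library. Foxa2 had 3 knockdown and 281 control counts and was 99.5-fold lower (33.7 to 485.5), and Sox17 had 2 knockdown and 154 control counts and was 81.8-fold lower (22.3 to 681.6). Gata6 was 16.8-fold (8.59 to 37.4) and Gata4 7.97-fold lower (4.35 to 16.0). Lama1, a laminin gene on the same list, had 2088 knockdown and 1288 control counts and was 1.53-fold higher (1.42 to 1.64), short of 2-fold. Sox7, below the entry level, had 15 knockdown and 6 control counts, a log2 ratio of 1.23 (-0.21 to 2.89). Ttr was at 0 in both libraries and Afp had 0 counts in the knockdown library and 1 in the control. Of 12 trophectoderm markers 7 entered and 3 were lower, with a median of -0.36 and sums of 64.3 CPM in the knockdown library and 101.8 CPM in the control library. These were Cdx2, Eomes at 4.71-fold (3.84 to 5.81) and Fgfr2 at 2.79-fold (2.44 to 3.20). Tead4 had the opposite direction, with 557 knockdown and 338 control counts at 1.55-fold higher (1.35 to 1.78), short of 2-fold. The other uncalled markers were Gata2, at a log2 ratio of 0.46, and Tfap2c and Ascl2, at -0.36 and -0.15. Below the entry level, Tfap2a had 21 knockdown and 10 control counts, Esx1 9 and 5, and Gata3 3 and 7. Cdx2, Tfap2c, Tfap2a and Gata3 are also on the list of epithelial factors, so Cdx2 was counted as lower on both lists. The trophoblast factor Elf5 had 0 counts with the linc1557 hairpin and 1 with the control hairpin, and Hand1 had 3 in each. Of 8 surface ectoderm and epidermis markers only Sfn entered, 2.56-fold lower (2.22 to 2.96) with 277 counts in the knockdown library against 668 in the control library, while Dlx5 was at 0 in both and Trp63 had 0 counts in the knockdown library and 1 in the control. The markers on these lists are not restricted to 1 cell type, so the lists do not name the cells that differed. The part of feeder, endoderm, trophectoderm and ectoderm cells in the keratin and desmosome ratios was not tested.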

How the data were processed

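The deposited values are raw read counts for each gene in both libraries, beside the length of the gene. The submitters' processing notes name Trim Galore, HISAT2, featureCounts and DESeq and the builds mm10 and GRCm38, while tool versions, the annotation release and the strand setting are not given. Symbols came from GENCODE M21, which matched 46488 of 46983 identifiers. TMM factors were computed over the whole table with edgeR 4.0.16 in R 4.3.3. Knockdown over control ratios used no pseudocount, with 0 counts set to 3 and Clopper-Pearson intervals from Python 3.11.15 and scipy 1.17.1. Pseudogene copies were sought with blastn 2.17.0, at 90% identity or more over at least 200 bases. The calculation was tested on simulated data. The genes, lists and motifs were chosen with earlier results of these data known. Named outside the set are, per list, the 4 called genes of largest change, or the 2 most abundant of a list with no call, and neighbours within 200 kb of Krt8, Krt18, Dsc2 and Dsg2. Further genes, among them Klf5, Grhl3, Pkp4, Krt10, Krt222, Tead4, Lama1, Fn1, Nefh, Cdh1, Cdh3, Vcl and markers near 0, were named after their values were seen. Cdx1, Grhl1, Tfap2c, Sox7, Dcn, Gata2, Ascl2, Tfap2a, Esx1 and Gata3 were also named in this way. Alternatives were 11 settings of scaling (DESeq2 1.42.0 size factors among them), filter, prior count, fold threshold, depth and centring.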

Additional observations from a re-analysis of the deposited data

How the results depend on the processing

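The ratios of the keratin and desmosome genes kept their direction under the 7 alternative settings that can move a ratio, and 69 of 70 recomputed ratios stayed within the counting interval, the exception being Jup at -0.57 with total-count scaling. That scaling shifted the median of all genes by -0.12. The number of the 10 genes called lower was 7 under most settings, 6 with DESeq2 size factors or nuclear protein-coding genes alone, where Pkp2 was lost, 5 with the filter at 5 CPM, which removed Krt7 and Dsc2, and 8 at a 1.5-fold threshold, where Perp was added. At a 4-fold threshold it was 3 (Krt7, Krt8 and Krt18), and of the genes on the other lists 19 were lower there against 51. Over all genes, the filter at 5 CPM left 728 lower and 330 higher, the 1.5-fold threshold gave 2598 and 1817, and the 4-fold threshold 389 and 152, because these settings change which genes can be called. Krt7 and Dsc2 rest on 5 and 19 knockdown counts, so depth limits their ratios most. No paired analysis was possible because each group has 1 library.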

Other observations

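Intermediate filament genes other than keratins had calls in each direction. Of 14 such genes 13 entered, and 4 of these were lower, 1 higher and 8 uncalled around a median log2 ratio of -0.32. Over all genes entered, 9.48% were lower and 4.68% higher, so the single higher call is near that share. The neurofilament gene Nefm was 6.53-fold lower (2.91 to 17.2) from 7 knockdown and 43 control counts. Nefl, which lies inside the span of Nefm on the opposite strand, was 3.97-fold lower (3.22 to 4.93) from 114 knockdown and 426 control counts. With the strand setting not known, these calls may not be independent, and shared exon bases were not examined. Nefh, the other neurofilament gene, had 571 knockdown and 605 control counts, a log2 ratio of -0.17, and was not called. Ina (alpha-internexin) was 4.17-fold lower (3.70 to 4.72). Prph (peripherin) was 2.55-fold higher (2.08 to 3.13), with 360 counts with the linc1557 hairpin and 133 with the control hairpin. Nes (nestin) was 2.13-fold lower (1.97 to 2.31), named after its value was seen. Vim (vimentin), the filament gene with the most counts of this list, had 7618 counts in the knockdown library against 9121 in the control library and was not called, and the nuclear lamina genes Lmna, Lmnb1 and Lmnb2 were not called either.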
